A study of Mus musculus with 12 samples.

Results

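Macrophages are the main resident immune cells of pancreatic islets, the clusters of hormone-secreting cells in which beta cells make insulin. The RNA of 31 macrophage marker genes was followed in whole mouse islets, with and without inflammatory cytokines. The genes were taken by symbol from a list of surface receptors, complement subunits, Fc receptors, adaptors and effector proteins of these cells. All 31 were found among the 55536 rows of the count table, and all 31 were among the 19800 genes left by a filter on low counts. They took 0.0384% to 0.0512% of the counts of an untreated library and 0.0999% to 0.147% of a treated one.

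Total RNA of islets was sequenced in 12 libraries, 3 in each of 4 groups. The mice were 16 weeks old and had a mixed strain background of C57BL/6J. Control islets carried the genotype PTPN2 fl/fl, a floxed allele of the tyrosine phosphatase gene Ptpn2, and were titled PTPN2 +/+. The other islets were given as PTPN2 -/- and named bKO in the protocol, taken to mean a beta cell knockout. Islets of each genotype were cultured untreated or for 24 h with a mixture of 3 cytokines: IFN-gamma, TNF-alpha and IL-1beta. No source used here names the Cre driver or the sex of the mice. Islets came from 3 mice per genotype, so the 6 libraries of a genotype share mice in a way the labels do not give, and p-values measure the spread between these libraries.

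Macrophages live in most tissues, where they take up dead cells and debris, present antigen and secrete cytokines. Their survival depends on the receptor Csf1r, and their identity on the transcription factor PU.1, the product of Spi1. Islet macrophages lie close to blood vessels and beta cells and are known for a basal activated state. IFN-gamma is the classical activator of macrophages and raises their Fc receptors and their oxidative burst. TNF-alpha and IL-1beta are among the cytokines macrophages themselves secrete.

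The bKO label did not come with less Ptpn2 RNA. Untreated control libraries held 30.3, 31.5 and 31.4 CPM (counts divided by the TMM-scaled library size, on the usual CPM scale), and the untreated libraries labelled bKO held 36.7, 33.8 and 35.5. With cytokines the controls held 88.9, 90.4 and 78.3 CPM, and the islets labelled bKO 110.5, 84.2 and 107. The log2 differences of 0.19 (adjusted p = 0.989) and 0.23 (adjusted p = 0.26) did not pass the test, so the genotype is written as a label. Counts over a whole gene do not show whether an exon was removed in beta cells.

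Library sizes ran from 47064061 to 107515565 counts. A library, replicate 2 of the bKO label with cytokines, stood apart and is called the deviating library: Ins1 and Ins2 took 8.15% of its counts, against 12.2% to 14.9% in the other 11 libraries. The summed level of 7 stellate cell markers was 8165 CPM there, against 3082 and 3279 in the other libraries of its group. Results that rest on it are given with and without it.

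The upstream sequences of the genes were read for the letters that factors of the myeloid lineage and of interferon signalling are known to bind. Promoters of 22 of the 31 genes were taken from RefSeq (assembly GRCm38.p6), each as the 250 bases before the transcription start, and 4 are printed 5′ to 3′ with matches in capitals. The other 9 genes, among them C1qa, Itgb2, Spi1 and Csf1r, had no entry or were left out, so the counts of matches do not cover them. Cybb is shown for its 3 interferon-response matches and C1qb for a PU box. Mpeg1, at the smallest adjusted p of the cytokine responses, and Cx3cr1, the only gene called lower, are shown because their windows held no match of either motif. Positions are chrX:9469325-9469574 (minus strand) for Cybb, chr4:136886201-136886450 (minus strand) for C1qb, chr19:12460520-12460769 (plus strand) for Mpeg1 and chr9:120068297-120068546 (minus strand) for Cx3cr1.
Cybb: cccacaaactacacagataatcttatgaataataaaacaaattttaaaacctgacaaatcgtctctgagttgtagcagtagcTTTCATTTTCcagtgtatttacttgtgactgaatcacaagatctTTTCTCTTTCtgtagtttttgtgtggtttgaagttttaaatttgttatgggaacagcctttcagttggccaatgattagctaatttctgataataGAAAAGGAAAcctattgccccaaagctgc
C1qb: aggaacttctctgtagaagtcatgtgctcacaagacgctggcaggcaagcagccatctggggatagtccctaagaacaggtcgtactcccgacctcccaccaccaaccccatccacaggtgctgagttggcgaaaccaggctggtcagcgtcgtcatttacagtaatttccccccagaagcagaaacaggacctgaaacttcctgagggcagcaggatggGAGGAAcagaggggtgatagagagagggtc
Mpeg1: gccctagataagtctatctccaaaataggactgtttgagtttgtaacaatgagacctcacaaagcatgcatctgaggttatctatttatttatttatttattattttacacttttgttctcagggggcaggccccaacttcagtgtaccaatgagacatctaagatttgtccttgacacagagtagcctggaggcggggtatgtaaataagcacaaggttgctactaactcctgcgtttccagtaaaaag
Cx3cr1: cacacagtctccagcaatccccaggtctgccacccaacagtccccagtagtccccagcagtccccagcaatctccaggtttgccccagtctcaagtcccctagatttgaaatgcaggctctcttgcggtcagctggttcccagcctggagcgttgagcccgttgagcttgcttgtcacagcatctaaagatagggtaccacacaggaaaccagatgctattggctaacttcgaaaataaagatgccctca

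The interferon-stimulated response element, GAAANNGAAA on either strand, was found in the promoters of 2 of the 22 genes, Aif1 and Cybb. Of 27025 mouse genes, 3.46% held it in any promoter window of the same length. Cybb, the catalytic subunit of the phagocyte NADPH oxidase, held 3 matches, which began 168, 124 and 29 bases before the start. The PU box, GAGGAA on either strand, was in promoters of 12 of the 22 genes and of 25.9% of all genes. These are matches of letters in a window and do not show binding. For Cybb and Cx3cr1 the RefSeq start lies inside the longer gene span of GENCODE release M21.

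Several members are neighbours in the genome, which the choice of the list did not use. C1qb (chr4:136880129-136886187), C1qc (chr4:136889804-136893065) and C1qa (chr4:136895917-136898803) lie in a row on the minus strand. Fcgr2b (chr1:170958617-170976547), Fcgr3 (chr1:171051174-171064935) and Fcer1g (chr1:171229572-171234365) share a stretch of chromosome 1. Itgam (chr7:128062640-128118491) and Itgax (chr7:128129547-128150657) are adjacent on the plus strand. All coordinates are those of GENCODE M21 on GRCm38.

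In control islets the cytokines raised 27 of the 31 macrophage markers and lowered 1, with 3 not called (edgeR quasi-likelihood test, Benjamini-Hochberg adjusted p under 0.05 over 19800 genes). Of all genes tested, 26.8% were called higher and 33.9% lower. The median log2 fold change of the members was 1.197, against -0.10 over all genes. In islets labelled bKO 28 members rose, 1 fell and 2 were not called, with a median of 1.41 against -0.06. The background there was 28.8% higher and 33.6% lower. At least 2-fold increases were called for 21 and 24 members, and for 11.3% and 12.6% of all genes. The treated and untreated libraries did not overlap for 29 of 31 members in either genotype, and for 70.5% (controls) and 65% (labelled bKO) of all genes. In bulk RNA more cells of a type and more RNA per cell cannot be told apart.

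**Figure D1:**
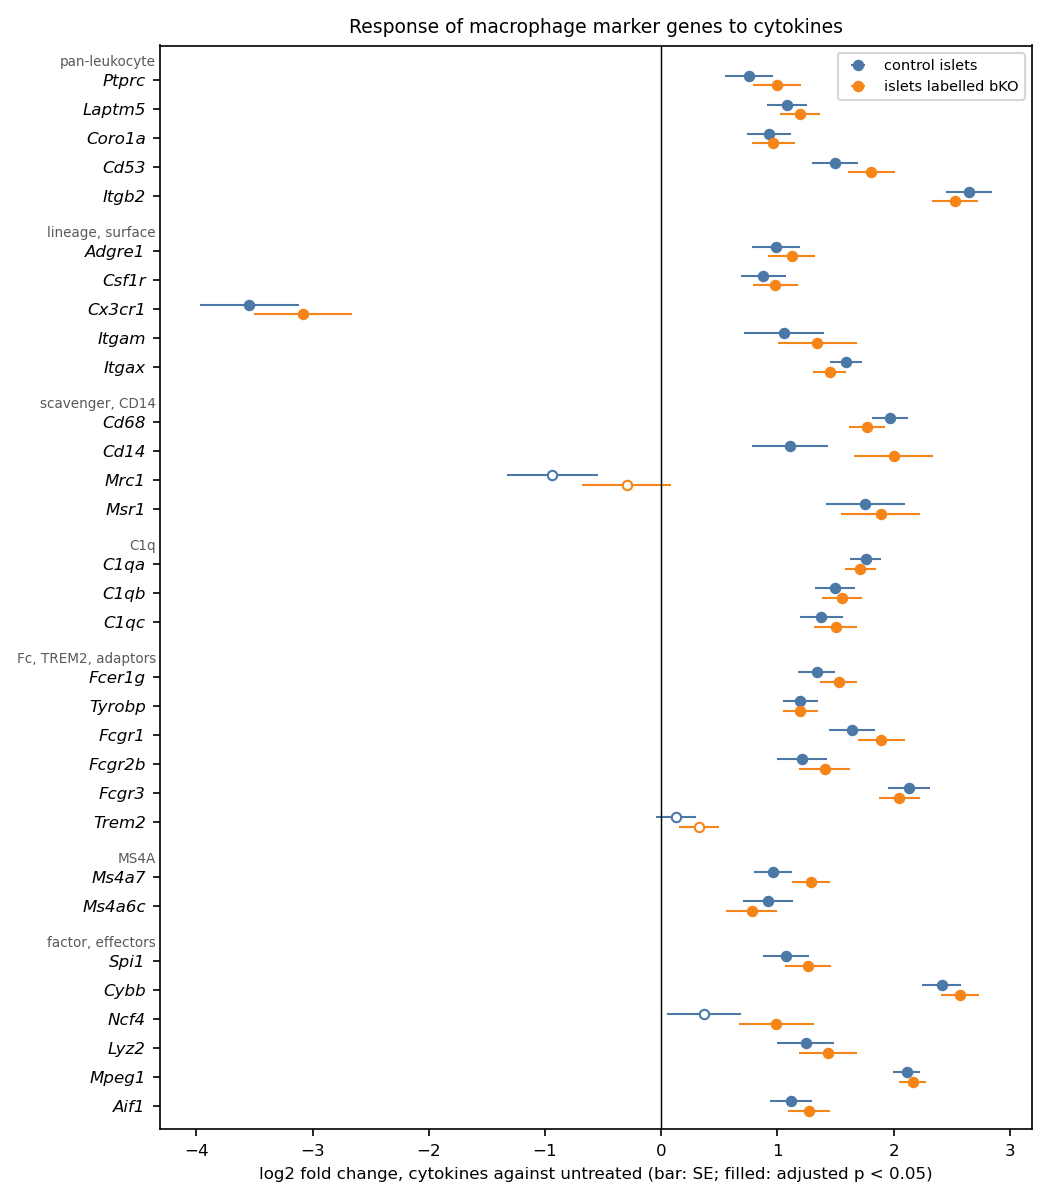
Log2 fold change with cytokines of the 31 macrophage markers, by role, in control islets (blue) and islets labelled bKO (orange), with bars of 1 SE and filled points at adjusted p under 0.05. Genes called higher in controls sit between 0.76 and 2.65, while Cx3cr1 sits at -3.54 and -3.08 and Mrc1 and Trem2 are open in both genotypes.

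Among the 5 genes shared by most leukocytes, all 5 rose in both genotypes, with medians of 1.08 and 1.19. Itgb2, the beta chain (CD18) of the leukocyte integrins, rose most of all 31 members in controls. Its untreated control libraries held 8.93, 11.4 and 13.2 CPM and the treated ones 84.6, 63.3 and 62.8. Islets labelled bKO went from 13.9, 14.1 and 10.3 CPM to 72.5, 88.9 and 60.0. Every treated library lay far above every untreated one. The log2 fold changes were 2.65 (SE 0.20, adjusted p = 6.4e-07) and 2.53 (SE 0.20, adjusted p = 8.0e-07). Ptprc, the phosphatase CD45 carried by nearly all leukocytes, rose less, by log2 0.76 (SE 0.21, adjusted p = 0.0074) and 1.00 (SE 0.21, adjusted p = 0.0013). The ratio of Itgb2 to Ptprc counts therefore moved, from 1.44 to 1.79 in untreated to 5.69 to 6.28 in treated control libraries. Cd53, a tetraspanin, rose by 1.49 and 1.81, Laptm5, a lysosomal membrane protein, by 1.08 and 1.19, and Coro1a, an actin-binding protein, by 0.93 and 0.97.

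The 5 lineage and surface genes split. Csf1r, the receptor for CSF1 and IL-34, had the highest mean CPM of these 5 over the 12 libraries. It held 17.8, 22.1 and 22.2 in untreated and 46.1, 33.8 and 34.4 in treated control libraries. The bKO label went from 23.9, 23.2 and 16.4 to 40.9, 51.5 and 33.2 CPM. The groups did not overlap, and the rises of log2 0.88 (SE 0.19, adjusted p = 0.0019) and 0.98 (SE 0.19, adjusted p = 8.7e-04) were under 2-fold. Of its exon bases 15.12% overlap Hmgxb3 on the opposite strand, a limit for each ratio to Csf1r counts. Adgre1, which encodes the F4/80 antigen, rose by 0.99 and 1.12. Itgax, the integrin CD11c that islet macrophages are known to carry, had the largest increase of this group in controls, from 11.4, 13.6 and 14.1 CPM to 42.8, 35.9 and 38.9. The bKO label went from 14.9, 13.8 and 10.3 to 38.2, 36.3 and 31.96 CPM. The log2 fold changes were 1.59 (SE 0.14, adjusted p = 2.1e-06) and 1.45 (SE 0.14, adjusted p = 3.9e-06). Itgam, the integrin CD11b, rose by 1.06 (adjusted p = 0.0186) and 1.34 (adjusted p = 0.0049). Its call in controls was lost when replicate 1 of either control group was left out (adjusted p = 0.0719 without the untreated and 0.09 without the treated one) and with library totals as the scaling (0.0612). Of its exon bases, 68.67% are shared with Gm49368 on the same strand, so its reads are uncertain.

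Cx3cr1 (chr9:119901616-120069879), the receptor for the chemokine fractalkine, was the only member called lower in either genotype. Untreated control libraries held 12.8, 13.04 and 12.6 CPM, and treated ones 1.28, 0.815 and 1.24. In islets labelled bKO it went from 12.02, 13.3 and 8.90 CPM to 0.847, 2.54 and 0.559. The highest of the 3 treated values belongs to the deviating library, and no treated library reached an untreated one. Control islets gave a log2 fold change of -3.54 (SE 0.43, adjusted p = 2.5e-05), an 11.7-fold fall, and islets labelled bKO gave -3.08 (SE 0.42, adjusted p = 6.3e-05). Without the deviating library it was -3.96 (SE 0.26, adjusted p = 1.1e-07) there. Relative to Csf1r, Cx3cr1 counts stood at 0.569 to 0.719 in untreated and at 0.0241 to 0.0362 in treated control libraries. The ratio of the bKO libraries went from 0.503 to 0.571 to 0.0169 to 0.0494. On a per-length scale it went from rank 15 to rank 30 of the 31 members in control islets.

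**Figure D2:**
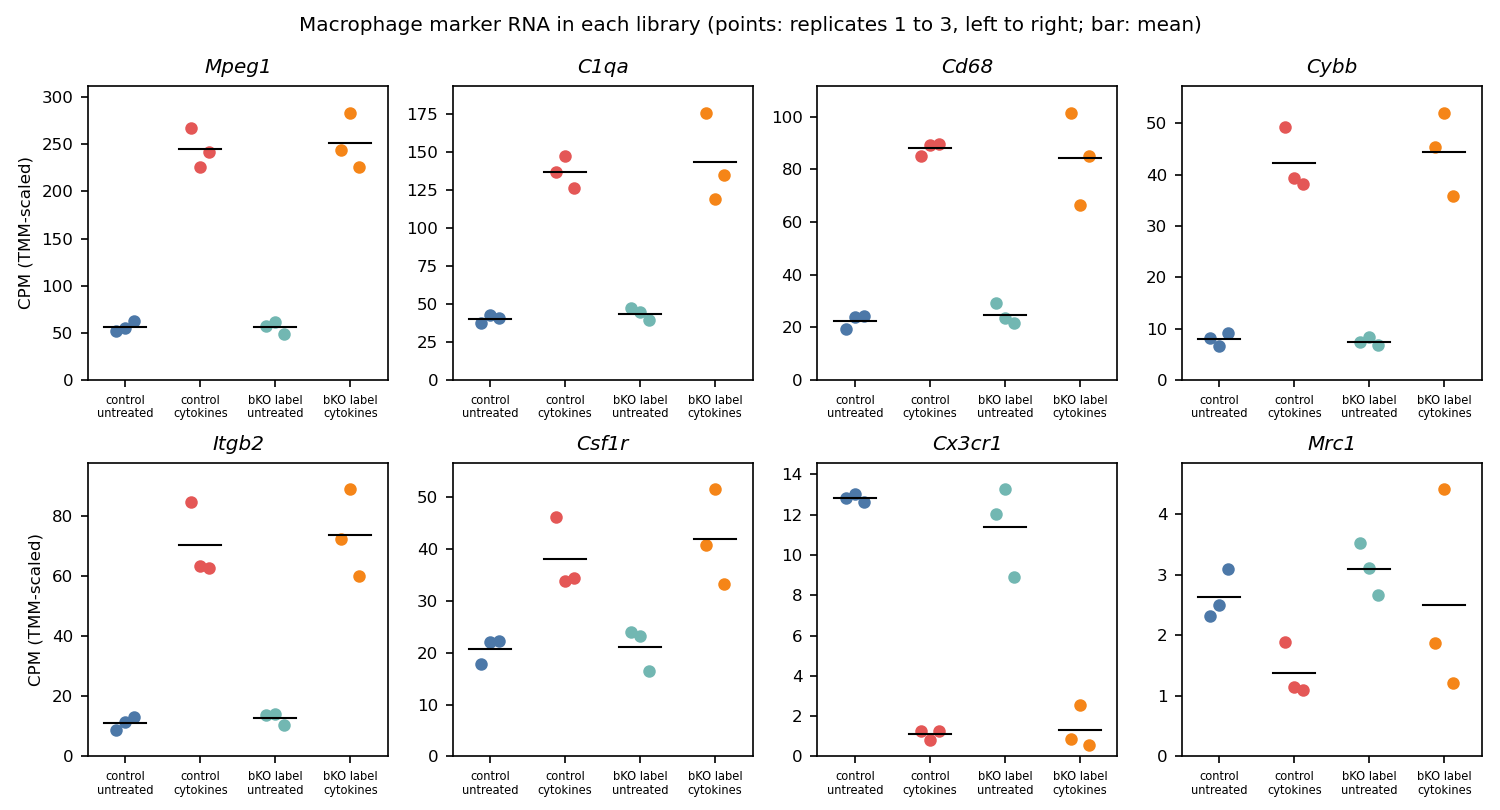
CPM of 8 macrophage markers in each library, by group, with a bar at the mean of 3. Treated libraries lie above untreated ones for Mpeg1, C1qa, Cd68, Cybb, Itgb2 and Csf1r and below them for Cx3cr1, while for Mrc1 they overlap in islets labelled bKO.

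Of the 4 scavenger and pattern recognition genes, 3 rose in each genotype. Cd68, a lysosomal glycoprotein of phagocytes, had the largest increase of these 4 in controls, from 19.3, 23.8 and 24.3 CPM to 84.9, 89.4 and 89.5. In islets labelled bKO it went from 29.2, 23.5 and 21.5 to 101, 66.6 and 85.2 CPM. The log2 fold changes were 1.97 (SE 0.16, adjusted p = 1.0e-06) and 1.77 (SE 0.16, adjusted p = 2.0e-06). Cd14, the co-receptor for bacterial lipopolysaccharide, was less even between libraries. It went from 24.5, 31.2 and 36.7 CPM to 63.0, 42.7 and 93.7 in controls and from 30.7, 23.9 and 26.8 to 66.4, 166 and 92.9 in islets labelled bKO. All treated values lay above all untreated ones, but they were spread widely in both genotypes. Controls gave a log2 fold change of 1.11 (SE 0.33, adjusted p = 0.0125) and islets labelled bKO one of 2.00 (SE 0.34, adjusted p = 3.2e-04), or 1.61 without the deviating library. In controls the call was lost without replicate 1 of the untreated (adjusted p = 0.0527) or replicate 3 of the treated libraries (0.0654). Msr1, the class A scavenger receptor, rose by 1.76 and 1.89, with treated libraries between 19.1 and 50.1 CPM.

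Mrc1, the mannose receptor CD206 that marks alternatively activated and many resident macrophages, did not rise. Control libraries held 2.32, 2.498 and 3.09 CPM untreated and 1.89, 1.15 and 1.103 with cytokines, without overlap. Islets labelled bKO held 3.53, 3.11 and 2.66 untreated and 1.88, 4.41 and 1.21 with cytokines, where the deviating library was above all untreated libraries. The log2 fold changes were -0.94 (SE 0.39, adjusted p = 0.057) and -0.30 (SE 0.38, adjusted p = 0.517). Without the deviating library, which also entered the shared estimate of the spread, Mrc1 passed as lower in both genotypes, at -0.87 (adjusted p = 0.0069) in controls and -0.95 (adjusted p = 0.0105) in islets labelled bKO. All 31 members were then called in islets labelled bKO, 29 higher and 2 lower, where 30% of all genes were called higher and 32.3% lower. Relative to Csf1r counts, Mrc1 stood at 0.113 to 0.139 in untreated and 0.0321 to 0.0410 in treated control libraries.

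The C1q chains, which form the recognition part of the first complement component and are made by resident macrophages, all rose. C1qa had the highest per-length level of the 31 genes, 38.9 RPKM (CPM divided by the exon length in kilobases; SD 2.7, n = 3) in untreated control islets and 131.7 (SD 10.4, n = 3) with cytokines. Its libraries held 37.3, 43.0 and 41.0 CPM untreated and 137, 148 and 126 with cytokines in controls. Libraries labelled bKO held 47.3, 44.7 and 39.3 CPM untreated and 176, 119 and 135 with cytokines. No treated library overlapped an untreated one. The log2 fold changes were 1.76 (SE 0.13, adjusted p = 6.6e-07) and 1.71 (SE 0.13, adjusted p = 7.3e-07) for C1qa, 1.497 and 1.55 for C1qb, and 1.38 and 1.502 for C1qc. The summed level of the 3 chains went from 79.9 to 96.3 CPM to 245 to 299 in control libraries, and from 77.2 to 106 to 259 to 334 in those labelled bKO.

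Fc receptors bind antibody-coated targets. The activating IgG receptors signal through the adaptor Fcer1g, and receptors such as Trem2 through Tyrobp. Of the 6 genes of this group, 5 rose in each genotype. Fcer1g, the common gamma chain, had the highest mean CPM of these 6 over the 12 libraries. It held 10.2, 11.8 and 12.1 in untreated and 33.7, 26.7 and 25.6 in treated control libraries. With the bKO label it went from 12.3, 11.8 and 8.71 to 32.5, 35.4 and 26.5 CPM, and its log2 fold changes were 1.34 and 1.53. The largest increase of these 6 was that of Fcgr3, a low-affinity activating IgG receptor, from 5.36, 6.72 and 7.75 CPM to 36.4, 25.2 and 25.3 in controls. Islets labelled bKO went from 7.82, 8.17 and 6.67 to 32.5, 34.6 and 26.7 CPM. Treated and untreated libraries were far apart, at log2 2.13 (SE 0.18, adjusted p = 1.5e-06) and 2.05 (SE 0.18, adjusted p = 1.8e-06). Fcgr2b, the inhibitory receptor of the same family, rose by 1.21 and 1.41, so the ratio of Fcgr3 to Fcgr2b counts went from 1.80 to 1.90 in untreated to 2.86 to 3.90 in treated control libraries. These 2 genes share 166 stretches of 50 exon bases (6.95% of those of Fcgr2b and 9.58% of those of Fcgr3), so a part of their reads may be split. Fcgr1, the high-affinity IgG receptor, rose by 1.64 (SE 0.20) and 1.89 (SE 0.20), and Tyrobp, also called DAP12, by 1.197 and 1.198.

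Trem2, a lipid-sensing receptor that signals through Tyrobp, was the member of this group that did not pass. Control libraries held 4.75, 5.30 and 5.44 CPM untreated and 7.22, 5.04 and 4.69 with cytokines. Islets labelled bKO held 4.82, 5.83 and 4.74 untreated and 6.82, 5.45 and 7.02 with cytokines. The groups overlapped in both genotypes, and the log2 fold changes were 0.13 (SE 0.17, adjusted p = 0.539) and 0.32 (SE 0.17, adjusted p = 0.125). In controls the sign turned with library totals as the scaling (-0.10) and without replicate 1 of the treated libraries (-0.08). In the bKO label it passed only without the deviating library, at 0.49 (adjusted p = 0.0302). Relative to Csf1r counts, Trem2 went from 0.240 to 0.266 in untreated to 0.136 to 0.157 in treated control libraries, while in the bKO label the untreated range of 0.202 to 0.288 and the treated range of 0.106 to 0.212 overlapped.

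Both MS4A genes, which encode tetraspan membrane proteins of myeloid cells, rose. Ms4a7 went from 4.79, 5.70 and 6.91 CPM to 12.4, 10.8 and 10.7 in controls and from 6.18, 5.24 and 4.19 to 13.6, 13.3 and 11.3 in islets labelled bKO. The libraries did not overlap, at log2 0.96 (SE 0.16, adjusted p = 3.6e-04) and 1.29 (SE 0.17, adjusted p = 4.0e-05). Ms4a6c rose by 0.91 (adjusted p = 0.0032) and 0.78 (adjusted p = 0.0083), and in islets labelled bKO its call was lost with library totals as the scaling (adjusted p = 0.0514). Of its exon bases, 53.07% overlap BE692007 on the opposite strand, and the strand used in counting is not given.

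The last group holds a transcription factor and effector proteins, of which 5 of 6 rose in controls and 6 of 6 in islets labelled bKO. Mpeg1 (chr19:12460779-12465283) encodes perforin-2, a pore-forming protein of phagocytic vesicles, and was the most abundant of the 31 in CPM. Its libraries held 51.9, 55.5 and 62.7 CPM untreated and 268, 226 and 241 with cytokines in controls, and 57.8, 61.4 and 48.9 untreated and 244, 284 and 226 with cytokines in islets labelled bKO. The separation was wide, and the log2 fold changes were 2.11 (SE 0.12, adjusted p = 6.1e-08) and 2.16 (SE 0.12, adjusted p = 4.8e-08). Cybb (chrX:9435252-9487771), the oxidase subunit with the 3 interferon-response matches printed above, went from 8.08, 6.64 and 9.08 CPM to 49.4, 39.4 and 38.3 in controls. Islets labelled bKO went from 7.31, 8.29 and 6.81 to 45.4, 52.1 and 35.8 CPM. Its log2 fold changes of 2.41 (SE 0.17, adjusted p = 3.0e-07) and 2.57 (SE 0.17, adjusted p = 1.8e-07) were the largest of this group. Relative to Csf1r counts, Cybb went from 0.301 to 0.453 in untreated to 1.071 to 1.164 in treated control libraries.

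Ncf4, the p40 subunit of the same oxidase, had a log2 fold change of 0.37 (SE 0.32, adjusted p = 0.339) in controls, which did not pass, whereas 0.99 (SE 0.32, adjusted p = 0.0185) for the bKO label did. The difference between these responses did not pass (adjusted p = 0.605), and the call in islets labelled bKO was lost without replicate 3 of their untreated libraries (adjusted p = 0.066) and with library totals as the scaling (0.0633). Lyz2, the lysozyme of macrophages and granulocytes, rose by 1.24 and 1.43. Of its stretches of 50 exon bases 15.39% also occur in Lyz1, a close copy. Spi1 rose by 1.08 and 1.26, and Aif1, an actin-binding protein also known as IBA1, by 1.12 and 1.27. Aif1 and Cybb, the members whose promoters held an interferon-response match, lay below and above the median of the members.

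Levels of different genes were compared per length. In untreated control islets Lyz2 followed C1qa with 27.6 RPKM (SD 1.6, n = 3), then C1qb with 22.0 (SD 3.1), Cd68 with 17.9 (SD 2.2), Cd14 with 17.8 (SD 3.5) and C1qc with 13.6 (SD 1.8). C1qb, Cd68 and Cd14 did not differ beyond their spread. With cytokines C1qa was again highest, and Cd68 with 69.95 RPKM (SD 2.1), Lyz2 with 65.3 (SD 17), C1qb with 62.1 (SD 9.7) and Mpeg1 with 56.5 (SD 4.9) followed within the spread of Lyz2. On this scale Ptprc was the lowest of the 31 untreated, at 0.376 (SD 0.034), and Mrc1 with cytokines, at 0.217 (SD 0.070). Ptprc was divided by merged exons of 18313 bases, and in CPM it was not the lowest. Its untreated control mean was 6.89 CPM, against 2.6 for Mrc1 and 1.8 for Ncf4. Cybb went from rank 22 to rank 14.

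Within a group, some libraries were high or low for nearly all members. Replicate 1 of the treated control libraries was the highest of its group for 28 of 31 members, and replicate 3 of the untreated islets labelled bKO was the lowest for 29. Replicate 1 of the untreated control libraries was the lowest for 27, and, among treated islets with the bKO label, replicate 3 for 25. The median deviation over the 31 members, as log2(CPM + 0.5) minus the group mean, ran from -0.30 to 0.24 between libraries. The deviating library was the highest of its group for 22 members, led by Cd14 (166 CPM), Lyz2 (163), Msr1 (50.1), Itgam (9.85), Mrc1 (4.41) and Cx3cr1 (2.54). It was the lowest for 3, Cd68 (66.6 CPM), C1qa (119) and Trem2 (5.45). The 31 genes summed to 369 to 453 CPM in untreated and 1109 to 1369 in treated control libraries, and to 353 to 468 and 1145 to 1523 in those labelled bKO.

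**Figure D3:**
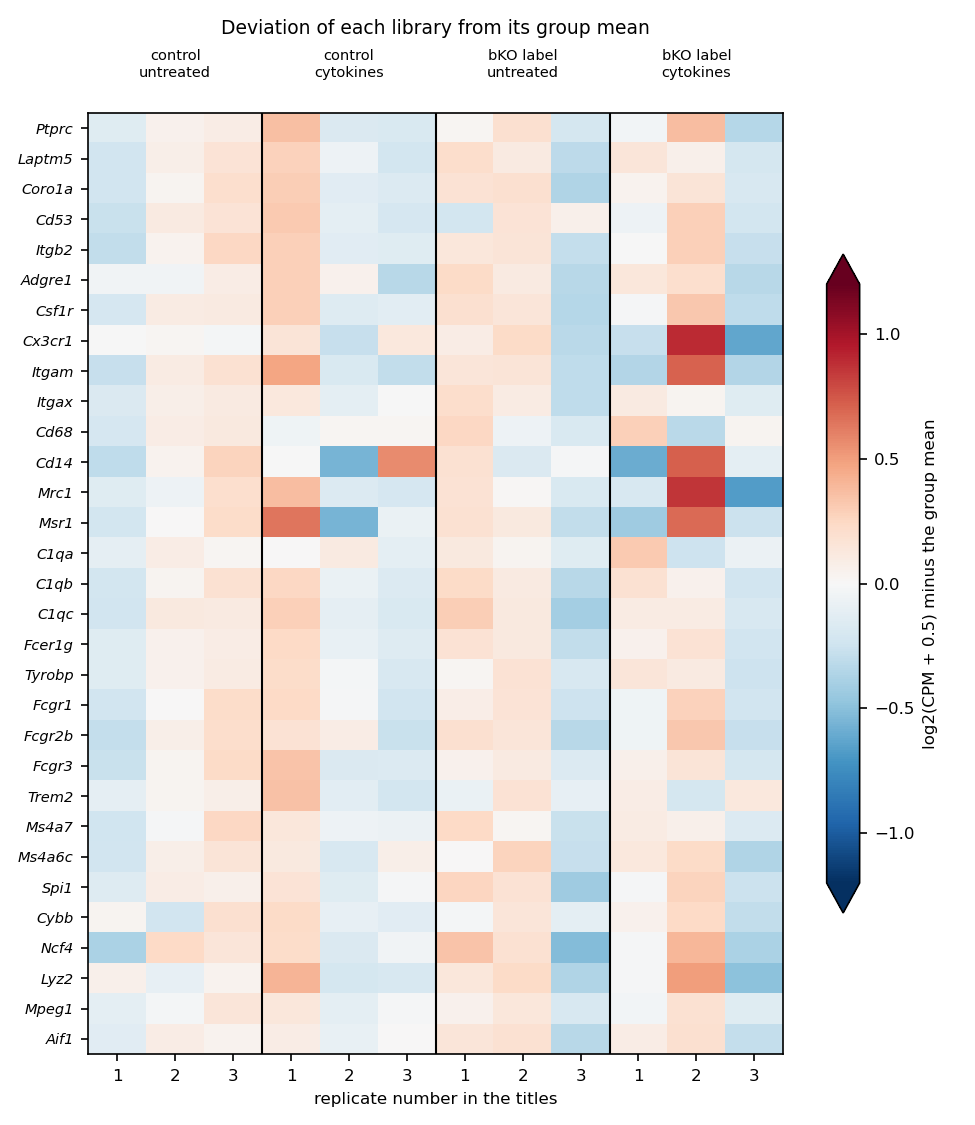
Deviation of each library from its group's mean, as log2(CPM + 0.5), for the 31 macrophage markers (rows) and 12 libraries (columns). Red is above and blue below the mean; the deviating library (replicate 2 of the last group) is reddest for Cx3cr1, Mrc1, Cd14, Itgam and Msr1 and is blue for Cd68, C1qa and Trem2.

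No macrophage marker passed the test between islets labelled bKO and controls. Untreated, 0 of 31 were called by edgeR, 0 by DESeq2 and 0 by limma-voom, where edgeR called 0.0758% of all genes, and each tool gave 0 of 31 at an unadjusted p under 0.05, where edgeR gave 5.55%, limma-voom 6.33% and DESeq2 3.5% of the genes it tested. The log2 differences ran from -0.25 (Fcgr1) to 0.28 (Lyz2), with a median of 0.0018 beside -0.0075 over all genes. With cytokines 0 of 31 were called by edgeR, DESeq2 or limma-voom, where edgeR called 0.232% of all genes. At an unadjusted p under 0.05 edgeR gave 1 member, Mrc1, and DESeq2 gave 2, Mrc1 and Cd14, and limma-voom 0, beside 17.8%, 11.2% and 18.2% of the genes each tested. The libraries of the genotypes overlapped for all 31 members in both conditions, whereas they did not overlap for 16.2% (untreated) and 17.7% (with cytokines) of all genes.

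With cytokines 28 of 31 members were nominally higher in islets labelled bKO, with a median log2 difference of 0.14 and a range of -0.14 to 0.87. Of all 19800 genes tested, 10062 were nominally higher, with a median of 0.0053. Members moved together within libraries, so they are not independent counts. The largest values were those of Mrc1 (0.87, adjusted p = 0.28), Cd14 (0.71), Ncf4 (0.59), Itgam (0.57) and Lyz2 (0.48), all genes for which the deviating library was the highest of its group. Leaving out each library in turn gave medians of 0.03 to 0.27, the highest without replicate 1 of the treated control libraries. Without the deviating library 19 of 31 were positive, the median was 0.03, and the range was -0.65 (Cx3cr1) to 0.31 (Ncf4). Mrc1 was then at 0.15, Cd14 at 0.26, Itgam at 0.06 and Lyz2 at 0.18. Stellate, monocyte and ductal marker sums were also highest in that library, and their part in these values was not tested.

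The direct comparison of the cytokine responses of the genotypes called 0 of 31 members and 0% of all genes by edgeR. None of the 31 had an unadjusted p under 0.05 with edgeR or limma-voom, and DESeq2, which called 0 members, gave Cd14. Over all genes tested the shares at that threshold were 10.9% for edgeR, 11.8% for limma-voom and 6.9% for DESeq2. The log2 differences in response ran from -0.20 (Cd68) to 0.89 (Cd14, SE 0.46, adjusted p = 0.498), with a median of 0.15. Leaving out each library in turn gave medians of -0.01 to 0.29. The lowest came without replicate 3 of the untreated islets labelled bKO and the highest without replicate 3 of the treated ones. Without the deviating library the median was 0.01. These comparisons use the same libraries as the cytokine responses and are not independent of them.

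**Figure D4:**
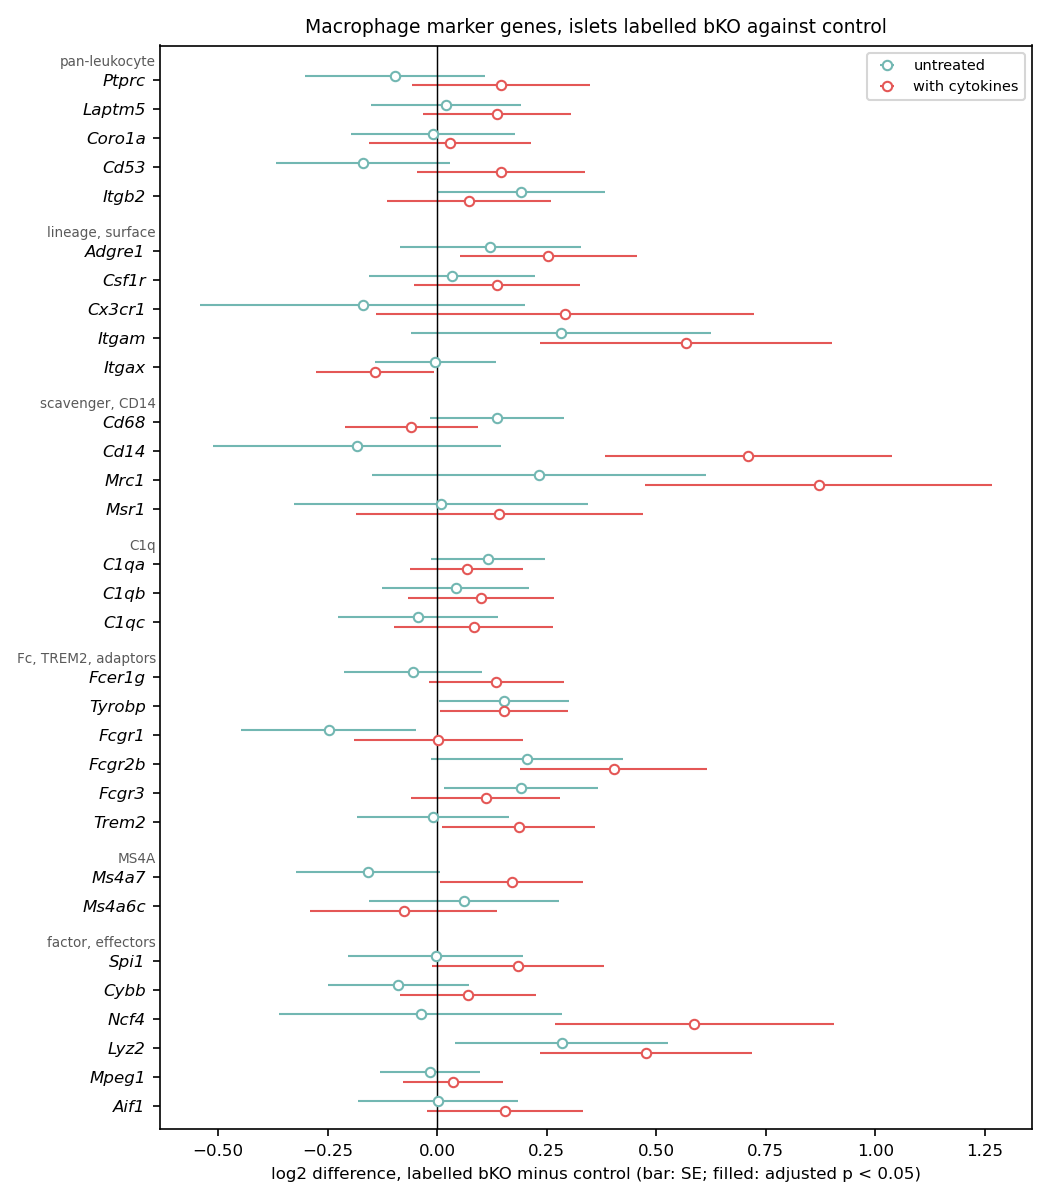
Log2 difference of the 31 macrophage markers between islets labelled bKO and controls, untreated (green) and with cytokines (red), with bars of 1 SE. All points are open, since none passed adjusted p under 0.05, and the largest values with cytokines are Mrc1 at 0.87 and Cd14 at 0.71.

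Other genes of macrophages moved with the 31. Of 31 further macrophage markers tested, 18 rose and 4 fell in controls (median 1.18), and 21 rose and 3 fell in islets labelled bKO (1.15). Clec7a, the beta-glucan receptor dectin-1, rose by log2 3.12 (SE 0.21) and 3.44 (SE 0.22), Irf8, a transcription factor induced by IFN-gamma, by 2.55 and 2.61, and Clec4n, the lectin dectin-2, by 3.84 and 3.85. Among those that fell in controls, named after their values were seen, were Maf (-0.99, adjusted p = 0.0428), a transcription factor that restrains the self-renewal of macrophages, Alox5ap (-1.05, adjusted p = 5.6e-05), which leukotriene synthesis needs, and Cd163. Cd163, a scavenger receptor of resident macrophages, had 15, 13 and 15 counts in untreated and 1, 0 and 1 in treated control libraries. Of 20 further leukocyte genes, 16 rose and 0 fell in controls (median 1.104) and 17 rose and 0 fell in islets labelled bKO (1.22), among them Lcp2 (2.12 and 2.32), Plek (1.52 and 1.67) and Cd52 (2.09 and 2.39).

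Ligands of macrophage receptors rose in 8 of the 9 tested genes in each genotype and fell in 0, with medians of 2.01 and 1.94. The monocyte chemoattractant Ccl2 went from 2.52 CPM (SD 0.65, n = 3) to 297.5 (SD 28) in controls and from 2.24 (SD 0.42) to 318 (SD 43) in islets labelled bKO. Ccl7, a related chemokine, went from 0.776 to 22.4 CPM in controls, and Csf3, the growth factor of granulocytes, from 0.184 to 14.4. The ligands of the 2 receptors above were looked up after their values were seen. Csf1, which binds Csf1r, stood at 112 CPM (SD 12) untreated and 452 (SD 60) with cytokines in controls, a rise of log2 2.01 (SE 0.24, adjusted p = 2.2e-05), and Il34 by 0.96. Cx3cl1, or fractalkine, which binds Cx3cr1, stood at 23.7 CPM (SD 0.83) and 52.3 (SD 11), a rise of log2 1.14 (SE 0.19, adjusted p = 0.000315), while its receptor fell.

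Partners of the oxidase rose in 5 of 7 tested genes in controls and 6 of 7 in islets labelled bKO, and fell in 0 (medians 1.11 and 1.23). Cyba, the p22 subunit that pairs with the product of Cybb, rose by 1.70 (SE 0.20) and 2.16 (SE 0.21), and Rac1, a GTPase made by all cells, by 0.67 and 0.98. Of 10 Fc receptor and ITAM signalling genes, 4 rose, 1 fell and 5 were not called in each genotype (medians 0.08 and 0.40). Of all genes tested, 26.8% (controls) and 28.8% (labelled bKO) were called higher and 33.9% and 33.6% lower, so this list did not rise as a whole. The kinases Lyn (2.34 and 2.16) and Syk (1.45 and 1.47) and the IgG receptor Fcgr4 (3.71 and 3.98) were among those that rose. All 9 further complement genes listed rose in both genotypes (medians 2.504 and 2.73). C1ra, a protease of the C1 complex, went from 5.22 CPM (SD 1.3, n = 3) to 449.6 (SD 49.55) in controls, C1s1, the other protease, from 5.51 (SD 1.1) to 149 (SD 17), and Cfb from 0.966 (SD 0.11) to 42.7 (SD 6.5). These levels in whole islets do not tell which cells made the RNA.

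Of 13 genes of classical activation, 12 rose and 0 fell in each genotype (medians 4.42 and 4.12). Acod1, which makes itaconate in activated macrophages, went from 0.567 CPM (SD 0.15, n = 3) to 216 (SD 9.2) in controls, and Cd40, a co-stimulatory receptor, from 10.8 (SD 1.5) to 232 (SD 13). Nos2, which beta cells of rodents also express under cytokines, went from 0.294 (SD 0.22) to 1150 (SD 39). Of 12 genes of alternative activation only 5 had enough counts to test, of which 1 rose and 2 fell in controls and 2 rose and 0 fell in islets labelled bKO. Without the deviating library the latter counts were 1 and 2, the same numbers as in controls. Pdcd1lg2 then rose in islets labelled bKO (2.28, adjusted p = 0.0044), and Arg1 and Cd163 fell. Cd163 was also counted above among the further macrophage markers. Arg1, or arginase-1, went from 36.7 CPM (SD 2.1) untreated to 9.15 (SD 4.1) with cytokines in controls, at log2 -2.01 (SE 0.46, adjusted p = 0.0028). In islets labelled bKO it was at -0.66 (adjusted p = 0.214), with treated libraries of 10.2, 40.4 and 12.4 CPM, of which the highest was the deviating library, and without it at -1.51 (SE 0.27, adjusted p = 4.3e-04).

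Of the genes listed for other blood cells, some stayed near 0 and others rose with the cytokines. The T cell receptor components Cd3d, Cd3e and Cd3g had group means of at most 0.082 CPM, and 1 of 3 tested T cell genes rose (Lck, 1.36) and 1 fell (Trac, -2.38) in controls. Of 4 tested B cell genes, 1 rose and 1 fell in controls, and Ms4a1, or CD20, had under 10 counts in all libraries together. The natural killer marker Ncr1 and the dendritic marker Cd209a were listed at 0 in all 12 libraries. Klrk1, the only natural killer gene tested, rose by log2 2.08 (adjusted p = 0.0048) and 3.86 (adjusted p = 1.5e-04). The summed natural killer list stood at 0.094 to 0.268 CPM in untreated and 0.217 to 0.321 in treated control libraries. Neutrophil genes rose in 4 of 4 tested: S100a8 and S100a9 reached 6.10 CPM (SD 0.72) and 23.0 (SD 2.5) in treated control islets, whereas Ly6g had a mean of 0.0601 and Cxcr2 of 0 there. Of 5 tested dendritic genes 3 rose and 0 fell in controls, among them Zbtb46 (0.81, SE 0.12), from 4.01 to 7.02 CPM. Zbtb46 did not rise most: the highest log2 fold change of this list was 7.03 there, and 2 genes were negative but not called. For the bKO label the highest was 10.15. With the deviating library left out, Clec9a stood at 10.19 (SE 0.60) and Batf3 at 2.39 (SE 0.44) for that label. Such large values depend on the prior count where a group is near 0 counts. Summed levels in untreated and treated control libraries were 3.88 to 5.48 and 8.00 to 11.5 CPM for T cells, 0.580 to 1.22 and 29.4 to 33.3 for neutrophils and 4.48 to 6.67 and 11.1 to 12.1 for dendritic cells. The part of these cells in the macrophage marker values was not tested.

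Monocyte genes did not move as a group. Of 4 tested, Plac8 rose (2.46) and F13a1 fell (-1.39) in controls, and 2 were not called. Ccr2, the receptor for Ccl2, was among those not called, at the low levels of 0.280 CPM untreated and 0.117 with cytokines. The summed level of the monocyte list was 36.7 to 44.0 CPM in untreated and 28.9 to 73.7 in treated control libraries. It was 51.0, 189 and 56.6 CPM in replicates 1, 2 and 3 of the treated islets labelled bKO, and 155 of the 189 came from Vcan, which fibroblasts also make. The only mast cell gene tested, Kit, fell by log2 0.72 in controls.

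Most markers of endocrine, endothelial and acinar cells fell in control islets. In control islets 7 of 10 beta cell, 6 of 7 alpha, delta and PP cell, 10 of 10 endothelial and 10 of 10 acinar markers fell and 0 rose, with medians of -2.01, -1.64, -2.14 and -2.37. Of 6 ductal markers 1 rose and 3 fell, and of 7 stellate cell markers 1 rose (Dcn, 1.75) and 0 fell. The summed beta cell list, which holds the insulin genes, went from 125300 to 137100 CPM in untreated to 144700 to 177700 in treated control libraries. In islets labelled bKO 7 of 10 beta cell, 6 of 7 alpha, delta and PP cell, 10 of 10 endothelial, 5 of 10 acinar and 0 of 6 ductal markers fell. There 5 of 7 stellate markers rose, and 2 of 7 without the deviating library. A fall of other cells' RNA raises the share of the rest, and its part in the macrophage marker values was not tested. With library totals as the scaling the median of all genes in controls moved from -0.10 to -0.33 and that of the members from 1.197 to 0.96. Between the genotypes with cytokines, only G6pc2 (-1.08, adjusted p = 0.0334) and Ucn3 (-1.22, adjusted p = 0.0334), both beta cell genes, were called on any of these lists.

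**Figure D5:**
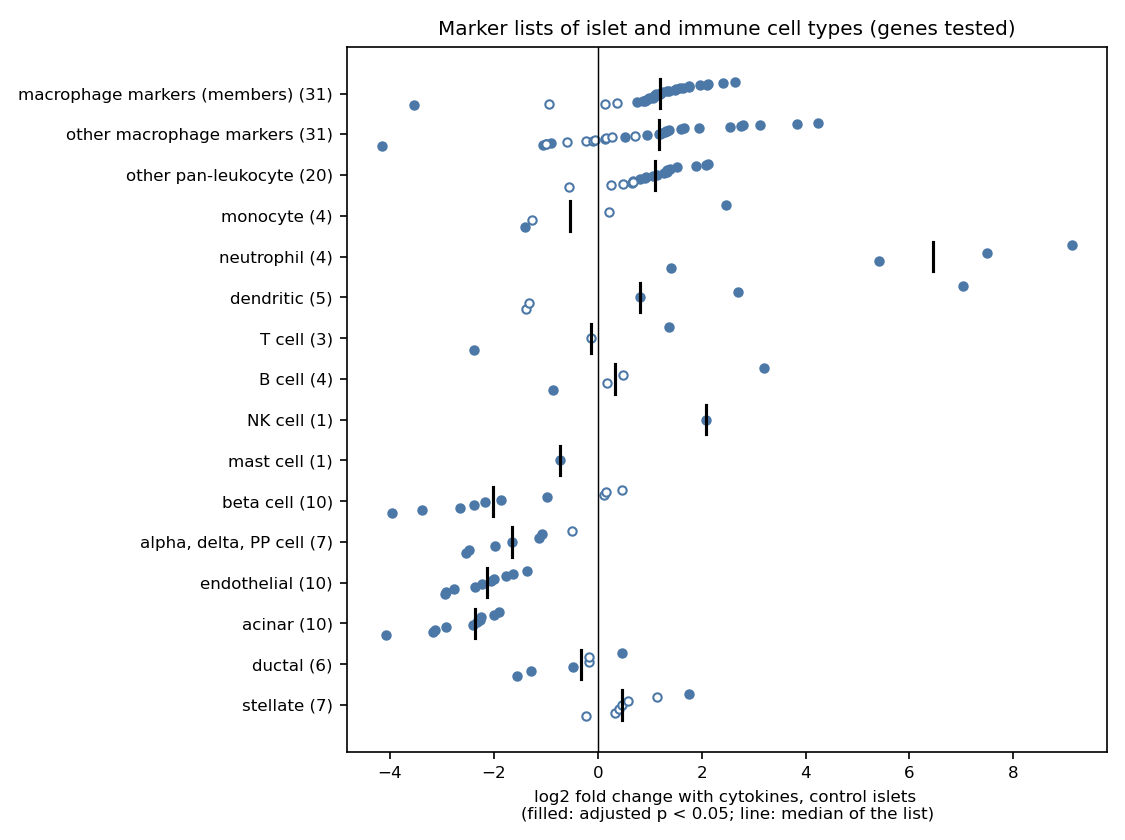
Log2 fold change with cytokines in control islets of the genes tested on each marker list, with filled points at adjusted p under 0.05 and a line at the list's median. The 3 macrophage and leukocyte lists have medians of 1.104 to 1.197, whereas the beta, endothelial and acinar lists have medians of -2.01 to -2.37, and values of genes near 0 counts in a group depend on the prior count.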

How the data were processed

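Total RNA of 12 islet samples was measured by RNA sequencing. The authors deposited raw whole-number counts per gene, in a full table (55536 rows, used here) and a filtered one (26532 rows, totals of 10 or more). The submitters' processing notes list the build GRCm38 and the tools STAR 2.5.2a, featureCounts 1.6.2, cutadapt 1.16, DESeq2 1.30.0 and FastQC 0.11.7; annotation release and strand setting were not given in the sources used here. No per-sample column was left unused.

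Groups and replicate numbers came from the sample titles. From the full table, filterByExpr of edgeR 4.0.16 (R 4.3.3) kept 19800 genes. TMM scaling was followed by the edgeR quasi-likelihood test, with 1 coefficient per group over 12 libraries and Benjamini-Hochberg adjustment over all genes at 0.05. Comparisons were cytokine against untreated in each genotype, labelled bKO against control in each treatment, and their interaction. Scripts were tested on simulated data. CPM use TMM-scaled library sizes, and RPKM divide by merged exon length. Libraries of a group differed by more than sampling noise (chi-square per degree of freedom 15 to 213, genes with a total of 20 or more counts), so none was counted as a copy. Totals per library were 47064061 to 107515565 counts, and the smallest member count in a library was 25 (Cx3cr1).

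The members, the other lists and the tests were chosen with earlier results of these data known. Values in every library are given, per role group, for the gene with the highest mean CPM, those with the largest rise and fall, and every gene called lower. From the other lists up to 3 genes with the smallest adjusted p in controls are named among those with 1 CPM or more in the higher group. Alternatives were limma-voom (limma 3.58.1), DESeq2 1.42.0, its size factors alone, library totals, TMM without acinar markers and abundant genes, a filter at 1 CPM in 3 libraries or none, the filtered table, a fit of the compared groups only, stricter thresholds, blocks by replicate number, and each library left out in turn. Some results on single items are not reported here.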

Additional observations from a re-analysis of the deposited data

How the results depend on the processing

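The count of members higher with cytokines was 21 to 27 in controls and 24 to 29 in islets labelled bKO over 25 alternatives, and the lowest values came from the stricter thresholds. Leaving out each library in turn gave 25 to 27 and 27 to 29. The count lower in controls became 2, through Mrc1, with library totals (adjusted p of Mrc1 0.0257), without a filter (0.0394), with limma-voom (0.0372) and with a fit of the compared groups only (0.0116). It was 1 to 2 when libraries were left out, in both genotypes: 2 in controls without replicate 1 of their treated libraries or without replicate 2 or 3 of the treated islets with the bKO label, and 2 in the latter without replicate 2, the deviating library. The fits with a replicate block, by number or by genotype and number, gave 27 higher and 1 lower in controls and 28 and 1 in islets labelled bKO. Same-numbered libraries of a genotype correlated at -0.21 to 0.11 (6 pairs), so the numbers were not taken to pair samples, and no count of members called changed under the block. In the genotype comparisons and the interaction 0 members were called under every alternative run.

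Signs turned for Trem2 in controls with library totals (-0.10), and leaving out libraries gave -0.084 to 0.24. For Mrc1 in islets labelled bKO leaving out libraries gave -0.95 to 0.028, with the positive value without replicate 3 of the treated ones. Cx3cr1 in the genotype comparison with cytokines ranged from -0.65 to 0.65. In the interaction the ranges were -0.48 to 0.82 for Cx3cr1, -0.11 to 0.42 for Lyz2, -0.077 to 0.97 for Mrc1, -0.22 to 0.59 for Itgam and -0.0041 to 0.34 for Fcgr2b. The negative values of these last 6 came without the deviating library, and the cause was not tested. Library totals moved the split of all genes in controls from 5298 higher and 6704 lower to 3737 and 8998, and DESeq2 size factors to 6029 and 5874.

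With 3 libraries a group and shared mice, small differences between the genotypes could be missed. Mrc1 and Ncf4, at a few CPM, had SEs of 0.32 to 0.39 on the log2 scale in the cytokine responses, against 0.12 for Mpeg1.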
